A study of Mus musculus with 18 samples.

Results

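The genes described here carry the signal of leukemia inhibitory factor (LIF) and related cytokines through the shared receptor chain gp130 to the transcription factor STAT3. They are the ligand genes Lif and Cntf, the receptor genes Lifr, Il6st (gp130) and Osmr, the kinase and transcription factor genes Jak2 and Stat3, and the feedback and target genes Socs3, Bcl3 and Cebpd. They were taken by their symbols, 10 of the 23420 genes counted, and all 10 were listed. Of these, 9 had enough counts to be tested among 15196 genes, and Cntf did not.

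Cytokines of the interleukin-6 (IL-6) family bring gp130 together with another receptor chain, such as the LIF receptor or the oncostatin M receptor. The Janus kinases bound to these chains then phosphorylate STAT3, which enters the nucleus and raises the transcription of its target genes, among them Socs3, whose protein binds gp130 and the kinases and shuts the signal off. In the retina, Müller glia are a known source of LIF after photoreceptor injury, and LIF signalling through gp130 and STAT3 is known for glial activation and for photoreceptor survival.

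Retinal RNA was sequenced from 9 wild-type BALB/cJ mice, an albino strain, which were 8 to 10 weeks old and of both sexes by the study's methods and were described there as carrying the light-sensitive variant of Rpe65. The 3 naïve mice had neither light exposure nor treatment. The 3 vehicle-treated mice were exposed to white light of 15000 lux for 1 h and injected with the solvent DMSO, and the 3 TD139-treated mice had the same light and 15 mg/kg TD139, a galectin-3 inhibitor, in DMSO. Injections were intraperitoneal, daily, and began on the day before the light, and the labels of all 9 mice give day 4 as the time, which is 4 days after light for the exposed mice. No group received an injection without light, so light and injection cannot be told apart between naïve and vehicle-treated mice, and no group received TD139 without light. Whole retinas of individual mice were used, so fewer cells of a type and less RNA per cell cannot be told apart in any value below.

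The comparisons ask how these genes stand in the retina after light damage and how they stand when galectin-3 is inhibited. Between 26171887 and 30201517 reads were counted on genes per mouse, so that 3 counts, taken as the lowest detectable number, stand for 0.0993 to 0.115 CPM (the count over the TMM-normalized total of its library, scaled to 1000000). This floor covers counting error only. The label of retina was checked against Gnat1, the transducin subunit of rods, which was at 9212 to 19119 CPM, and Glul, the glutamine synthetase of Müller glia, at 2328 to 3054 CPM. Vehicle-treated mouse 2 stood apart, since 8 genes of lens, cornea and iris summed to 7141 CPM in it, 3.09 and 9.97 CPM in the other vehicle-treated mice, 70.8 to 290 CPM in naïve mice and 0.591 to 214 CPM in TD139-treated mice. The tests were therefore also run without this mouse.

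The promoters of Lif and Socs3 are shown because these were the genes called in both comparisons with vehicle-treated mice, Lif as the ligand at the top of the pathway and Socs3 as its STAT3-driven brake. The windows are RefSeq's on GRCm38.p6 and run from 250 bases before to 50 bases after the annotated start, written from 5′ to 3′ along the gene's strand. Lif lies at chr11:4257318-4257617 on the plus strand and Socs3 at chr11:117969317-117969616 on the minus strand. In capitals is the only match to TTCNNNGAA, the palindromic motif that STAT factors are known to bind, which was sought on both strands (it reads the same on either).
Lif: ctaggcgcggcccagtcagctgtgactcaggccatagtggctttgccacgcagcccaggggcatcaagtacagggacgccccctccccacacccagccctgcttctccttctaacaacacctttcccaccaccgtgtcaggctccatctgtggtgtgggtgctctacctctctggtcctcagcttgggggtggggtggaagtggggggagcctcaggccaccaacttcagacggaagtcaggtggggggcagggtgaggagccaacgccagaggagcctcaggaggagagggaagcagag
Socs3: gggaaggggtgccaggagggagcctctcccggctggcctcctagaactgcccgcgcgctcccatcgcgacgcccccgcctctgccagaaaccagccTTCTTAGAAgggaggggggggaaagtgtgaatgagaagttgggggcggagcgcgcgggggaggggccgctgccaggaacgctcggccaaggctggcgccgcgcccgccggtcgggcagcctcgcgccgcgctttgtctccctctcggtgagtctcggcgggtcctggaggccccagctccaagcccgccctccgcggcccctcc
The match TTCTTAGAA in Socs3 lies 154 to 146 bases before the start. GENCODE M21 has a longer Socs3 gene that reaches base 117970047, so the window lies within that model. Windows were listed for 9 of the 10 genes, 10 windows in all, and 1 of the 10 held the motif, against 8.3% of all 32851 promoter windows. A match is a description of these letters only.

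Levels were compared between genes per kilobase of exon, over the summed length of all annotated exons of a gene, so that the order depends on which transcripts were made. On this scale Stat3 and Jak2 were the most abundant of the 10 transcripts in naïve retina, at 10.2 ± 3.25 and 9.01 ± 0.978 CPM per kilobase (SD, n = 3), and the mice of both genes overlapped. Lifr followed with 5.06 ± 0.692, Il6st with 4.78 ± 1.16 and Cebpd with 3.83 ± 2.03 CPM per kilobase, and these 3 also overlapped in that order. Socs3 stood at 1.56 ± 0.385 CPM per kilobase, below Cebpd and above Osmr in every naïve mouse. Osmr (0.679 ± 0.362), Bcl3 (0.362 ± 0.195), Lif (0.134 ± 0.0849) and Cntf (0.0921 ± 0.0862 CPM per kilobase) were the lowest, each overlapping its neighbor.

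The order was different in vehicle-treated mice, where Cebpd came first at 24.5 ± 14.7 CPM per kilobase, then Stat3 at 18.2 ± 6.71 and Socs3 at 9.21 ± 6.47 (SD, n = 3). Jak2, Bcl3 and Il6st lay between 6.60 and 7.97 CPM per kilobase on average, and from Cebpd down to Il6st each gene overlapped the next. Lifr, at 4.10 ± 0.563 CPM per kilobase, was below Il6st in every vehicle-treated mouse and overlapped Osmr at 3.36 ± 1.77. Lif reached 0.818 ± 0.374 and Cntf stayed at 0.0977 ± 0.0339 CPM per kilobase. In TD139-treated mice, Jak2 (9.80 ± 1.36), Stat3 (8.58 ± 1.36), Lifr (7.89 ± 2.19) and Il6st (7.56 ± 0.120 CPM per kilobase) led, each overlapping the next, and the other 6 genes were at 2.77 CPM per kilobase or below on average.

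Part of this order changed when the length of the longest transcript was used instead, an alternative chosen after the values were seen. The level of Osmr per kilobase changed by the largest factor, since its longest transcript has 5491 bases and its summed exons have 12113. Per kilobase of the longest transcript, Osmr stood at 1.497 ± 0.798 CPM in naïve mice and overlapped Socs3 at 1.77 ± 0.437, and with vehicle it was above Lifr on average (7.41 ± 3.90 against 4.58 ± 0.628, SD, n = 3), with overlap. Stat3 was then above Jak2 in every naïve mouse (16.1 ± 5.12 against 9.01 ± 0.978) and above Cebpd on average with vehicle (28.7 ± 10.6 against 24.5 ± 14.7). The receptors and Jak2 were above both ligand transcripts in every naïve mouse with either length.

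Against naïve mice, vehicle-treated mice had more Lif, the cytokine, and more Socs3, its feedback inhibitor, 6.05-fold and 5.88-fold respectively. Both passed the test at an adjusted p-value under 0.05 and the study's cut-off of a log2 fold change of 2, which 1.24% of all tested genes passed upward. Thus 2 of the 9 tested genes were called higher and 0 lower by edgeR, against 7.8% of all tested genes called in either direction and 4.91% called higher. At an unadjusted p-value under 0.05 edgeR had 7 of the 9 higher and 0 lower, and DESeq2 called 7 higher and 0 lower. DESeq2 called 15.9% of all tested genes in this comparison. In 6 of the 9 genes (Lif, Osmr, Stat3, Socs3, Bcl3 and Cebpd) every mouse given vehicle exceeded every naïve mouse, which held for 16.7% of all tested genes, and in 1 (Jak2) every such mouse was lower, as in 16.6% of all tested genes. The count of called genes depended on single mice: it was 0 without naïve mouse 1 or naïve mouse 2, 1 without naïve mouse 3 or vehicle-treated mouse 3, 3 without vehicle-treated mouse 2, and 5 without TD139-treated mouse 1, when Osmr, Bcl3 and Cebpd were added. The median log2 fold change was 2.31 over the 9 genes and −0.002 over all tested genes.

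In the comparison of light-exposed mice, 6 genes were lower with TD139 than with vehicle (Lif, Osmr, Stat3, Socs3, Bcl3 and Cebpd), and 1, Lifr, was higher. The 6 that fell were 2.12-fold (Stat3) to 13.3-fold (Bcl3) lower, and 5 of them, all but Stat3, passed the cut-off of a log2 fold change of −2, as did 1.53% of all tested genes. Many genes differed in this comparison, in which 33.4% of all those tested were called, 16.2% lower and 17.2% higher. The groups did not overlap in 8 of the 9 genes, against 51.5% of all tested genes. With a mouse left out, 3 to 8 of the 9 were called: 3 without TD139-treated mouse 2 or mouse 3 (Lif, Socs3 and Lifr), 4 without vehicle-treated mouse 3 and 8 without TD139-treated mouse 1. Of all tested genes, 10.5 and 12.4% were called without TD139-treated mouse 2 and mouse 3. The share was 16.4% without vehicle-treated mouse 3 and 38.4% without TD139-treated mouse 1. The median log2 fold change was −2.19 over the 9 genes and −0.016 over all tested genes. The vehicle-treated mice serve in this comparison and in that with naïve mice, so a value that is high in these mice by chance moves both, in opposite directions.

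TD139-treated mice differed from naïve mice in 1 of the 9 genes, Il6st, which was higher, against 5.1% of all tested genes called. No gene of the 9 was called lower by edgeR, none had an unadjusted p-value under 0.05 in that direction, and DESeq2 called Il6st and Lifr higher and 0 lower. Here DESeq2 called 17.3% of all tested genes. Without TD139-treated mouse 1 both Il6st and Lifr were called. Over the 9 fits that each left out a mouse, Il6st was called in 2 and Lifr in 1. The median log2 fold change was 0.12 over the 9 genes.

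**Figure D1:**
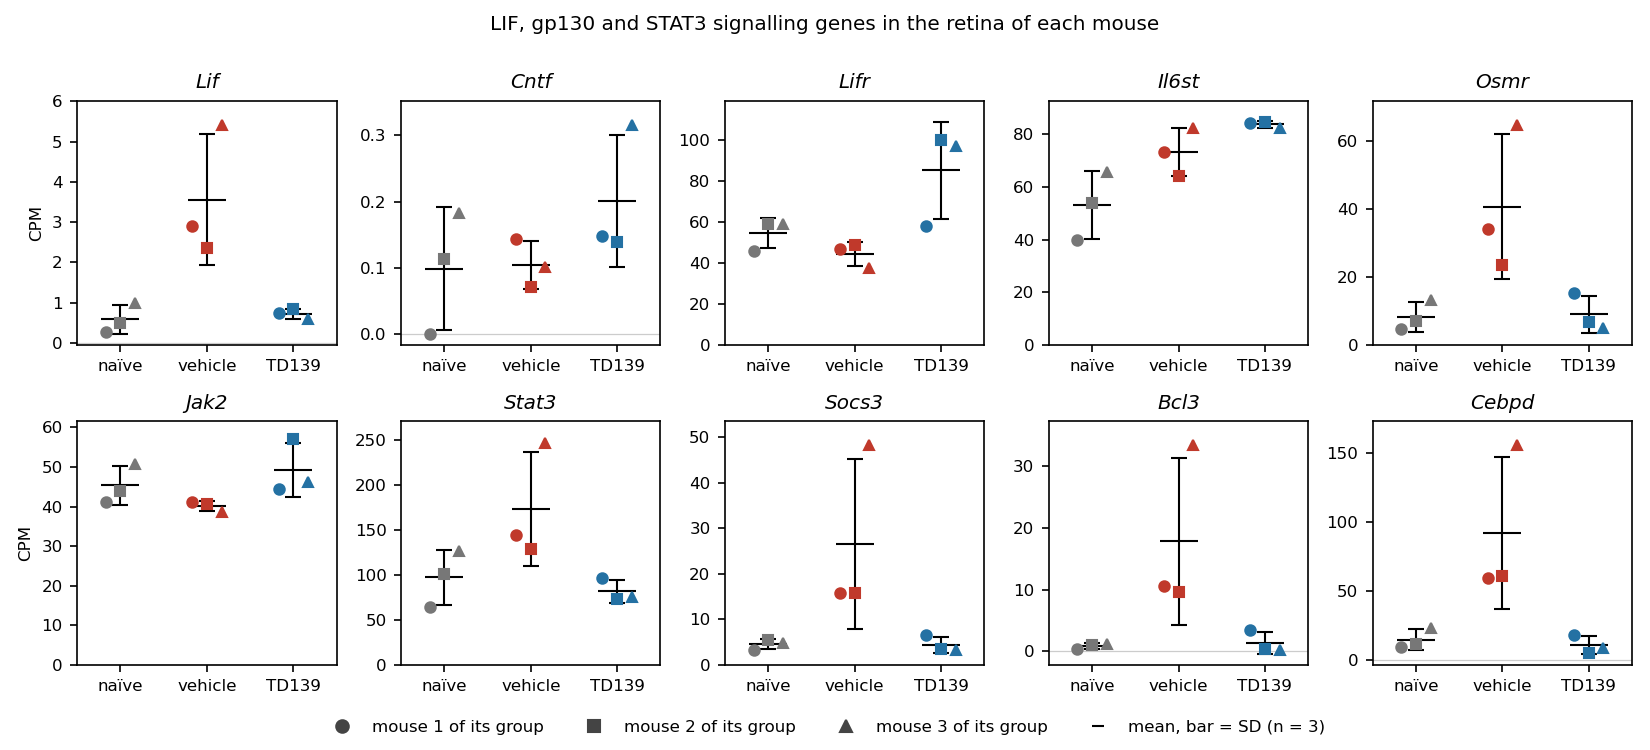
Level of each of the 10 genes in the retina of each mouse, in CPM on a linear axis, by group (naïve, vehicle and TD139, 3 mice each). Points are mice, shaped by their number within the group, which is not known to pair mice across groups. Horizontal bars are means and vertical bars SD. Vehicle-treated mouse 3 was the highest of all 9 mice for Lif, Osmr, Stat3, Socs3, Bcl3 and Cebpd, and Lifr was highest in TD139-treated mice 2 and 3.

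**Figure D2:**
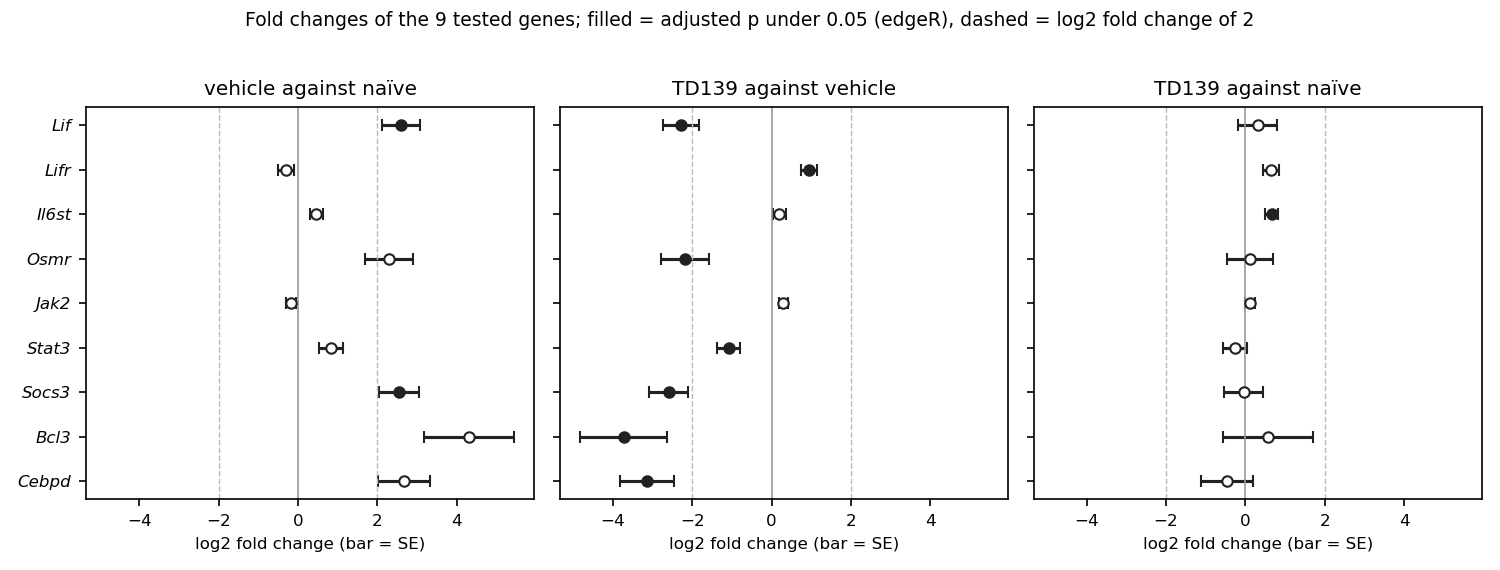
The log2 fold changes of the 9 tested genes in the 3 comparisons, with bars for the SE from edgeR and filled points where the adjusted p-value was under 0.05. In the middle panel 6 genes lie to the left of 0 and filled, whereas in the right panel Il6st alone is filled.

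Lif (chr11:4257557-4272514, plus strand, GRCm38) encodes the cytokine that binds the LIF receptor and gp130. It had 7, 13 and 27 counts in naïve mice, 81, 67 and 161 counts in vehicle-treated mice and 20, 24 and 15 in TD139-treated mice, which are 0.269 to 0.990, 2.37 to 5.41 and 0.593 to 0.835 CPM. All vehicle-treated mice were above all other mice, and the other groups overlapped. The log2 fold change was 2.60 ± 0.47 (SE) for vehicle against naïve (edgeR, adjusted p = 0.0185), −2.29 ± 0.46 for TD139 against vehicle (adjusted p = 0.00701) and 0.31 ± 0.49 for TD139 against naïve (adjusted p = 0.714). The rise was no longer called when naïve mouse 1, naïve mouse 2 or vehicle-treated mouse 3 was left out (edgeR adjusted p = 0.0559, 0.0788 and 0.0631), whereas the lower level with TD139 was called with any of the 9 mice left out.

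Cntf, which encodes ciliary neurotrophic factor, a ligand of the same receptor pair with an additional chain, had 0 to 5 counts in naïve mice, 2 to 4 counts with vehicle and 4 to 8 in TD139-treated mice. It was at or near the floor of 3 counts, and a difference between groups was not detectable at this depth. Its gene overlaps Zfp91 on the same strand, so reads from the shared stretch cannot be assigned to either with certainty.

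Of the 3 receptor chains, Osmr was high with vehicle, Lifr was high with TD139, and Il6st differed least between the light-exposed groups. Osmr (chr15:6813577-6874969, minus strand), whose protein pairs with gp130 to receive oncostatin M, had 4.57, 7.01 and 13.1 CPM in naïve mice, 34.0, 23.3 and 64.6 CPM in vehicle-treated mice and 15.2, 6.75 and 4.86 CPM in TD139-treated mice. Every vehicle-treated mouse was above every other mouse. TD139-treated mice had 4.56-fold less than vehicle-treated mice, with a log2 fold change of −2.19 ± 0.60 (edgeR, adjusted p = 0.0286). For vehicle against naïve the log2 fold change was 2.31 ± 0.60 and not called by edgeR (adjusted p = 0.0600), but was called by DESeq2 (adjusted p = 0.00346) and, without vehicle-treated mouse 2, by edgeR (adjusted p = 0.0449). The lower level with TD139 was not called without TD139-treated mouse 2 (adjusted p = 0.115), TD139-treated mouse 3 (0.0895), vehicle-treated mouse 3 (0.0783) or naïve mouse 2 (edgeR adjusted p = 0.0505).

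Lifr (chr15:7090614-7197489, plus strand) encodes the chain that binds LIF and, with further chains, ciliary neurotrophic factor and related ligands. Its levels were 45.9, 58.8 and 58.8 CPM in naïve mice, 46.5, 48.7 and 37.3 CPM in vehicle-treated mice and 57.8, 100.03 and 97.1 CPM in TD139-treated mice. All TD139-treated mice were above all vehicle-treated mice, but mouse 1 of the TD139 group lay within the naïve range. The log2 fold change was 0.94 ± 0.20 for TD139 against vehicle (edgeR, adjusted p = 0.0092), 0.64 ± 0.20 for TD139 against naïve (adjusted p = 0.0740) and −0.30 ± 0.20 for vehicle against naïve (adjusted p = 0.353).

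Il6st (chr13:112464070-112510086, plus strand), the gene of gp130 itself, had 39.8, 53.9 and 65.6 CPM in naïve mice, 73.3, 64.1 and 82.5 CPM in vehicle-treated mice and 84.4, 84.9 and 82.4 CPM in TD139-treated mice. The vehicle-treated mice overlapped both other groups, and the TD139-treated mice were all above the naïve mice, as in 15.3% of all tested genes. The log2 fold change was 0.66 ± 0.16 for TD139 against naïve (edgeR, adjusted p = 0.0457), 0.47 ± 0.16 for vehicle against naïve (adjusted p = 0.0884) and 0.19 ± 0.16 for TD139 against vehicle (adjusted p = 0.353). The call was lost without vehicle-treated mouse 2 (adjusted p = 0.0555), although that mouse is in neither of the groups compared, and leaving out 6 of the other 8 mice also took it above 0.05, up to 0.163 by edgeR.

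Transcript length moved with the calls of Lifr and Il6st. Their longest transcripts are at the 97.0th and 95.6th percentiles of length among tested genes, and the longest 10% of all genes had a median log2 fold change of 0.46 for TD139 against vehicle, whereas the shortest 10% had −0.45. With length and GC content corrected in each mouse, the log2 fold change of Lifr for TD139 against vehicle became 0.41 (edgeR, adjusted p = 0.0675) and that of Il6st for TD139 against naïve 0.27 (adjusted p = 0.276). Neither was then called. Osmr, at the 81.9th percentile, was lower with TD139 with the correction too (log2 fold change −2.44, edgeR adjusted p = 0.0332).

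**Figure D3:**
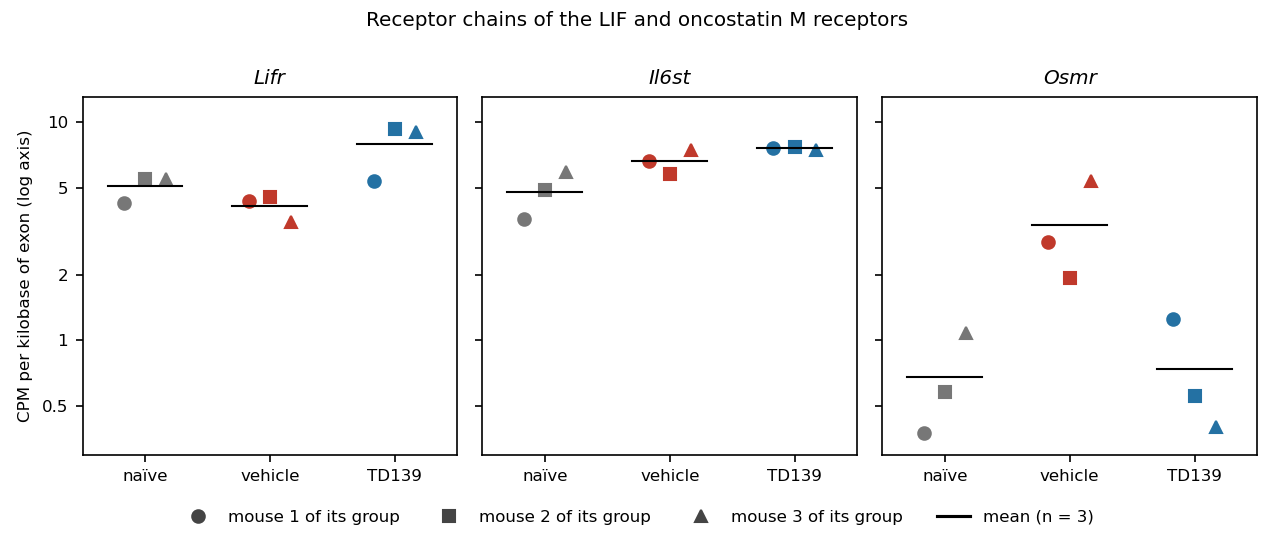
Receptor chain genes in each mouse, in CPM per kilobase of exon on a log axis, by group, with lines at the means of 3 mice. Lifr and Il6st stay between 3.46 and 9.28 CPM per kilobase in all mice, whereas Osmr spans 0.377 to 5.34 CPM per kilobase. In vehicle-treated mice Osmr is below Lifr on average over summed exons, an order that turns when the longest transcript is taken as the length.

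Stat3 (chr11:100885098-100939540, minus strand) had 64.8, 101 and 126 CPM in naïve mice, 145, 129 and 247 CPM in vehicle-treated mice and 96.6, 73.0 and 75.7 CPM in TD139-treated mice. The vehicle-treated mice were above all other mice, although vehicle-treated mouse 2 was close to naïve mouse 3. TD139-treated mice had 2.12-fold less than vehicle-treated mice (log2 fold change −1.09 ± 0.30, edgeR adjusted p = 0.0265). The difference of 0.84 ± 0.30 between vehicle-treated and naïve mice was not called (edgeR, adjusted p = 0.117), and TD139-treated mice differed from naïve mice by −0.25 ± 0.30 (adjusted p = 0.615). Without TD139-treated mouse 2, TD139-treated mouse 3 or vehicle-treated mouse 3 the call against vehicle was lost (edgeR adjusted p = 0.104, 0.0911 and 0.0625). Stat3 overlaps Stat5a on the opposite strand at its end, and whether the counting used strand is not given in the sources used here.

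Jak2 (chr19:29251828-29313080, plus strand), a kinase bound to gp130, moved little: 41.3, 43.9 and 50.8 CPM in naïve mice, 41.0, 40.6 and 38.6 CPM in vehicle-treated mice and 44.5, 57.1 and 46.2 CPM in TD139-treated mice. The vehicle-treated mice were below all others, by a small margin. None of the 3 log2 fold changes was called, and they were −0.18 ± 0.12 for vehicle against naïve, 0.30 ± 0.12 for TD139 against vehicle and 0.12 ± 0.12 for TD139 against naïve (edgeR, adjusted p = 0.352, 0.0725 and 0.533).

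The feedback and target genes had the largest fold changes of the 9 tested genes in TD139 against vehicle. Socs3 (chr11:117966079-117970047, minus strand), the gene with the motif in its promoter window, had 3.27, 5.39 and 4.91 CPM in naïve mice, 15.8, 15.9 and 48.2 CPM in vehicle-treated mice and 6.49, 3.48 and 3.20 CPM in TD139-treated mice. Each vehicle-treated mouse was above every other mouse, and mouse 3 was far above the rest of its group. The log2 fold change was 2.56 ± 0.50 for vehicle against naïve (edgeR, adjusted p = 0.0260), −2.60 ± 0.50 for TD139 against vehicle (adjusted p = 0.0084) and −0.04 ± 0.49 for TD139 against naïve (adjusted p = 0.964). The lower level with TD139 was called with any mouse left out. The higher level with vehicle was lost without any 1 of the naïve mice (edgeR adjusted p = 0.0831 to 0.0882).

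Bcl3 (chr7:19808462-19822770, minus strand) encodes a nuclear partner of NF-κB and is a known STAT3 target. It had 9, 29 and 34 counts in naïve mice, 296, 270 and 997 counts in vehicle-treated mice and 94, 10 and 5 in TD139-treated mice. The vehicle-treated mice were all above the others, and TD139-treated mouse 1 stood between the vehicle-treated mice and the rest of its own group. The log2 fold change was −3.73 ± 1.10 for TD139 against vehicle (edgeR, adjusted p = 0.0386) and 4.31 ± 1.14 for vehicle against naïve, which was not called (adjusted p = 0.0651). The call for TD139 against vehicle was lost in 7 of the 9 fits that left out a mouse, all but those without TD139-treated mouse 1 or vehicle-treated mouse 2, with an adjusted p-value of up to 0.123. With the correction for length and GC content the log2 fold change was −3.30 ± 1.08 and not called (edgeR adjusted p = 0.0703).

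Cebpd (chr16:15887286-15891031, plus strand) encodes C/EBPδ, a transcription factor of the acute phase response that STAT3 induces, and overlaps 2310008H04Rik on the opposite strand. It had 8.80, 11.2 and 23.0 CPM in naïve mice, 59.0, 61.0 and 156 CPM in vehicle-treated mice and 17.9, 5.04 and 8.22 CPM in TD139-treated mice. The vehicle-treated mice were again apart from both other groups, which overlapped. The log2 fold change was −3.15 ± 0.68 for TD139 against vehicle (8.86-fold lower, edgeR adjusted p = 0.0156), 2.68 ± 0.67 for vehicle against naïve (adjusted p = 0.0584, but 0.000959 by DESeq2) and −0.47 ± 0.65 for TD139 against naïve (adjusted p = 0.678). Without TD139-treated mouse 2 or mouse 3 the difference from vehicle had an adjusted p-value of 0.0607 or 0.0651 by edgeR.

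The spread within groups was shared between these genes. Vehicle-treated mouse 3 was the highest of its group for Lif, Osmr, Stat3, Socs3, Bcl3 and Cebpd, and TD139-treated mouse 1 was the highest of its group for Osmr, Stat3, Socs3, Bcl3 and Cebpd. Markers of microglia and macrophages moved with them: the summed level of 10 such genes was 44.6 to 53.3 CPM in naïve mice, 142 to 203 CPM in vehicle-treated mice and 36.8 to 93.2 CPM in TD139-treated mice, with vehicle-treated mouse 3 and TD139-treated mouse 1 again the highest of their groups. Of these 10 genes 8 were called higher with vehicle than in naïve mice and 9 lower with TD139 than with vehicle. Of the Müller glial markers, 5 of 10 were called higher with vehicle and 4 lower with TD139, but their summed level differed less, from 4152 to 4877 CPM in naïve mice, 5634 to 6301 CPM with vehicle and 4747 to 5685 CPM with TD139. Rod markers had 6 of 9 called lower with vehicle than in naïve mice and 3 higher with TD139 than with vehicle. These counts depended on single mice, as did the share of all tested genes called, which is given above. For vehicle against naïve, edgeR called 0 microglial, Müller glial and rod markers without naïve mouse 1, naïve mouse 2 or vehicle-treated mouse 3, although 10, 7 to 8 and 7 to 8 of them had an unadjusted p-value under 0.05. With naïve mouse 3 or mouse 1 of the vehicle group left out, it called 1 microglial marker, 2 and 0 Müller glial markers and 0 rod markers. For TD139 against vehicle, 4 microglial, 2 Müller glial and 1 rod marker were called without TD139-treated mouse 2 or mouse 3, and 7, 2 and 1 without vehicle-treated mouse 3, whereas 5 rod markers were called without vehicle-treated mouse 2 and 6 without TD139-treated mouse 1. The part of these cell markers in the results was not tested.

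Markers of other cells that a retinal sample can hold were counted in the same way. Of 8 markers of blood monocytes and neutrophils, 7 were listed, their summed level was 0.806 to 1.23, 2.79 to 6.005 and 0.790 to 2.34 CPM in naïve, vehicle-treated and TD139-treated mice, and S100a9 and Retnlg had 3 counts or fewer in every mouse. Csf3r, the receptor of granulocyte colony-stimulating factor, was the 1 of these called higher with vehicle by edgeR, among 2 that were tested, and between the light-exposed groups edgeR called 0 and DESeq2 1 of the 2 (1 at an unadjusted p-value under 0.05). Of 8 endothelial and pericyte markers 0 were called by edgeR and 1, higher, by DESeq2 for vehicle against naïve (1 at an unadjusted p-value under 0.05), and for TD139 against vehicle 1 was higher and 1 lower. Astrocyte markers had 1 of 6 called higher with vehicle and 3 lower with TD139, and Gfap, among the most abundant of them, is also made by reactive Müller glia. Of 7 tested markers of retinal pigment epithelium and choroid 0 were called for vehicle against naïve by edgeR or DESeq2 or at an unadjusted p-value under 0.05, and 2 were lower with TD139 than with vehicle. These small counts also depended on single mice. Csf3r was not called without any 1 of the naïve or vehicle-treated mice, and the astrocyte marker called higher with vehicle was not called when any naïve mouse, mouse 1 or 3 of the vehicle group, or mouse 3 of the TD139 group was left out. Without TD139-treated mouse 2 or mouse 3, the counts for TD139 against vehicle were 0 endothelial and pericyte, 0 pigment epithelial and 1 astrocyte marker, and without vehicle-treated mouse 2 they were 0, 0 and 2 (edgeR).

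The other genes of the pathway were read from lists of 64 genes, of which 56 were tested. Of these 56, 14 were called higher and 1 lower in vehicle-treated than in naïve mice, and with TD139 7 were higher and 22 lower than with vehicle, beside the 7.8% and 33.4% of all tested genes called in these comparisons. Between TD139-treated and naïve mice edgeR called 0 higher, with 2 higher at an unadjusted p-value under 0.05 and 1 called higher by DESeq2, and 1 was lower, Il11ra1, which was not called when naïve mouse 1 or 2, mouse 2 of the vehicle group, or mouse 2 or 3 of the TD139 group was left out (edgeR adjusted p = 0.0524 to 0.163). The 15 calls for vehicle against naïve depended on single mice, with 56 or 57 genes then tested: 0 were left without naïve mouse 1 or naïve mouse 2 (edgeR, with 22 and 21 higher and 6 and 5 lower at an unadjusted p-value under 0.05), 2 without naïve mouse 3 or vehicle-treated mouse 3, 4 without vehicle-treated mouse 1, and 11 to 20 without any 1 of the other mice. The 29 calls for TD139 against vehicle became 12 without TD139-treated mouse 2, 15 without TD139-treated mouse 3 and 18 without vehicle-treated mouse 3, and were 25 to 30 without any 1 of the others. The share of all tested genes called also moved with the mouse left out, as given above. Over the 56 genes the median log2 fold change was 0.48, −0.54 and 0.02 in the 3 comparisons.

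Among the other IL-6 family ligands 0 of 5 were called for vehicle against naïve by edgeR or by DESeq2, 1 was higher at an unadjusted p-value under 0.05, and 2 of 5 tested were lower with TD139 than with vehicle. These were Il27, a subunit of interleukin-27 (log2 fold change −2.59, edgeR adjusted p = 0.0305), and Clcf1, a cardiotrophin-like cytokine (−0.74, adjusted p = 0.0467). Both were low, with Clcf1 the more abundant at 1.66 to 3.66 CPM. Neither was called when any TD139-treated mouse or mouse 3 of the vehicle group was left out, Il27 also not without vehicle-treated mouse 2, and Clcf1 also not without naïve mouse 1, naïve mouse 2 or vehicle-treated mouse 1 (edgeR adjusted p of up to 0.124 and 0.158). Both calls were lost with the correction for length and GC content (edgeR adjusted p = 0.0973 and 0.144) and with run 1 alone (0.120 and 0.102). Clcf1 was also not called without the filter, with only the groups compared, with the replicate block or with run 2 alone (edgeR adjusted p = 0.0562 to 0.0889). Il6, Il31 and Lep had 3 counts or fewer in every mouse, so that no level of interleukin-6, interleukin-31 or leptin transcript was detectable at this depth. By qRT-PCR, the study reports that light raised the Il-6 transcript in retina and that it was lower after TD139. Osm, the ligand of the Osmr chain, was listed at 0 in all naïve mice, at 0.0357 to 0.269 CPM in vehicle-treated mice and at 0 to 0.111 CPM in TD139-treated mice, and was not tested.

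Of the other receptor chains, Il11ra1, the interleukin-11 receptor, was lower with TD139 than with vehicle (log2 fold change −0.65, edgeR adjusted p = 0.00693), and so was Cntfr, the chain specific to ciliary neurotrophic factor (−0.35, adjusted p = 0.0221). Cntfr was the more abundant, at 78.5 to 118 CPM, and its fold change turned to 0.13 with the correction for length and GC content. Its call was lost when mouse 1 of the vehicle group or mouse 2 or 3 of the TD139 group was left out (edgeR adjusted p = 0.0811, 0.0869 and 0.0922), and that of Il11ra1 was kept with any mouse left out but not with the correction for length and GC content (log2 fold change −0.33, edgeR adjusted p = 0.0605). Of the 7 other kinases and STAT factors tested, Jak3, which signals from receptors of lymphoid and myeloid cells, was the 1 called in both comparisons. Jak3 was 4.11 to 8.25 CPM in naïve, 12.8 to 19.2 CPM in vehicle-treated and 5.32 to 8.93 CPM in TD139-treated mice. Its higher level with vehicle was not called when any naïve mouse or mouse 1 or 3 of the vehicle group was left out, nor its lower level with TD139 when mouse 2 or 3 of the TD139 group was (edgeR adjusted p of up to 0.0885 and 0.0541). The vehicle-treated mice were above all others, whereas the abundant Jak1 and Stat5b were not called.

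The inhibitors of the pathway were the list in which more genes were higher than lower with TD139 than with vehicle, 6 against 1 of 15 tested (median log2 fold change 0.16). Those higher were Socs4, Socs7, Pias1, Pias2, Pias3 and Ptpn2, with log2 fold changes of 0.36 (Pias2) to 1.42 (Socs4), and Ptpn6, the phosphatase SHP-1 of blood and microglial cells, was lower (−1.83, edgeR adjusted p = 0.0118). With the correction for length and GC content, Socs4 was at 0.86, Pias1 at 0.31 and Pias3 at 0.92, all still called. With the replicate block added, Socs4 was not called (edgeR adjusted p = 0.0535). Without TD139-treated mouse 2, TD139-treated mouse 3 or vehicle-treated mouse 3, 3 of the 15 were called higher, and Ptpn6 was not called without TD139-treated mouse 2. Of Pias2 and Ptpn2, neither was called without vehicle-treated mouse 2 (edgeR adjusted p = 0.0671 and 0.0502) or with run 2 alone (0.0797 and 0.0550), Pias2 also not with library size alone (0.0603), and Ptpn2 also not without vehicle-treated mouse 1 (0.0832) or with the correction for length and GC content (0.0514). Ptpn6 was also called higher with vehicle than in naïve mice (log2 fold change 1.73, edgeR adjusted p = 0.0384), but not when any naïve or vehicle-treated mouse or mouse 2 of the TD139 group was left out. Pias3, which binds STAT3 and blocks its contact with DNA, was 170 to 185 CPM in naïve mice, 117 to 140.5 CPM in vehicle-treated mice and 163 to 226 CPM in TD139-treated mice. It was the 1 pathway gene called lower with vehicle than in naïve mice (log2 fold change −0.49, edgeR adjusted p = 0.0352), and was not called when any naïve mouse, mouse 1 or 3 of the vehicle group, or mouse 2 of the TD139 group was left out (0.0502 to 0.113). Among the other genes of the SOCS family, which like Socs3 turn off cytokine receptors, Socs1 had log2 fold changes of 0.93 and −0.72 and Socs2 of 0.76 and −0.60 for vehicle against naïve and TD139 against vehicle, and neither was called.

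The list of target genes of STAT3 and related factors held more calls than any other pathway list. Of 20 tested, 11 were higher and 0 lower with vehicle than in naïve mice by edgeR and by DESeq2, with 13 and 0 at an unadjusted p-value under 0.05 (median log2 fold change 0.75), and 13 were lower and 1, Hif1a, was higher with TD139 than with vehicle, with a median of −0.93. The higher levels with vehicle were called in 0 of the 21 genes then tested without naïve mouse 1 or naïve mouse 2 (edgeR, 13 and 12 at an unadjusted p-value under 0.05), in 2 without naïve mouse 3 or vehicle-treated mouse 3, in 3 without vehicle-treated mouse 1 and in 8 to 11 without any 1 of the other mice. The lower levels with TD139 were called in 7 without TD139-treated mouse 2, 8 without TD139-treated mouse 3, 9 without vehicle-treated mouse 3 and 13 without any 1 of the others, although without vehicle-treated mouse 2 the 13 held Fgl2, which was not tested with all mice, and not Ccnd1. Hif1a lost its call when mouse 1 or 3 of the vehicle group or mouse 2 or 3 of the TD139 group was left out. It was also not called with the correction for length and GC content (log2 fold change 0.31, edgeR adjusted p = 0.123). The largest differences were in Lcn2, the iron-siderophore carrier lipocalin 2, at 4.11 to 5.86 CPM in naïve mice, 182 to 447 CPM in vehicle-treated mice and 2.33 to 23.6 CPM in TD139-treated mice. Timp1, an inhibitor of matrix metalloproteases, went from 0.829 to 1.23 CPM in naïve mice to 11.98 to 37.7 CPM with vehicle and 0.277 to 1.52 CPM with TD139. Serpina3n, a secreted protease inhibitor, was 10.8 to 17.4, 132 to 432 and 6.84 to 35.9 CPM. The other genes called in both comparisons were Icam1, A2m, Tnfrsf1a, Myc, Cebpb, Irf1, Ccnd1 and Il4ra, with log2 fold changes of 0.74 to 3.55 and −0.65 to −3.01. Without vehicle-treated mouse 2, Ccnd1 was called in neither comparison (edgeR adjusted p = 0.0863 and 0.0677). In each of these 11 genes the vehicle-treated mice were above all other mice. Junb and Bcl2l1, the latter encoding the survival factor BCL-XL, were called only for TD139 against vehicle (−1.17 and −0.47), and Vegfa, Fos, Mcl1, Nfil3, Pim1 and Pim3 in neither comparison. With the correction for length and GC content Bcl2l1 was at −0.12 and not called (edgeR adjusted p = 0.306). Junb was then at −0.67 (edgeR adjusted p = 0.0472).

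The list labelled as the LIF-dependent response of Müller glia held Edn2, Fgf2, Gfap, Nes and Vim. Neither the dependence of these 5 genes on LIF nor the cells that make them were tested here. Of these, edgeR called Vim higher with vehicle than in naïve mice, and Gfap, Nes and Vim lower with TD139 than with vehicle. DESeq2 called 3 of the 5 higher and 4 lower in these comparisons, as did an unadjusted edgeR p-value under 0.05. The call of Vim for vehicle against naïve was lost when any naïve mouse or mouse 3 of the vehicle group was left out (edgeR adjusted p of up to 0.0703), and that for TD139 against vehicle was kept with any mouse left out. Gfap was not called without TD139-treated mouse 2 or 3, nor Nes without TD139-treated mouse 2 or vehicle-treated mouse 3. Gfap, the intermediate filament of reactive glia, was 26.6, 44.7 and 41.9 CPM in naïve mice, 160.0, 89.6 and 321 CPM in vehicle-treated mice and 43.5, 11.8 and 18.1 CPM in TD139-treated mice (log2 fold change −2.96 for TD139 against vehicle, edgeR adjusted p = 0.0182). The groups were apart for vehicle, and the higher level against naïve mice was not called by edgeR (2.33, edgeR adjusted p = 0.0766). Edn2, endothelin 2, was 4.42 to 19.3, 30.1 to 65.0 and 1.38 to 17.5 CPM, with no overlap between vehicle-treated and other mice, but was not called in either comparison (edgeR, adjusted p = 0.318 and 0.0927). Fgf2 was at 3.43 CPM or less in every mouse and not called.

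**Figure D4:**
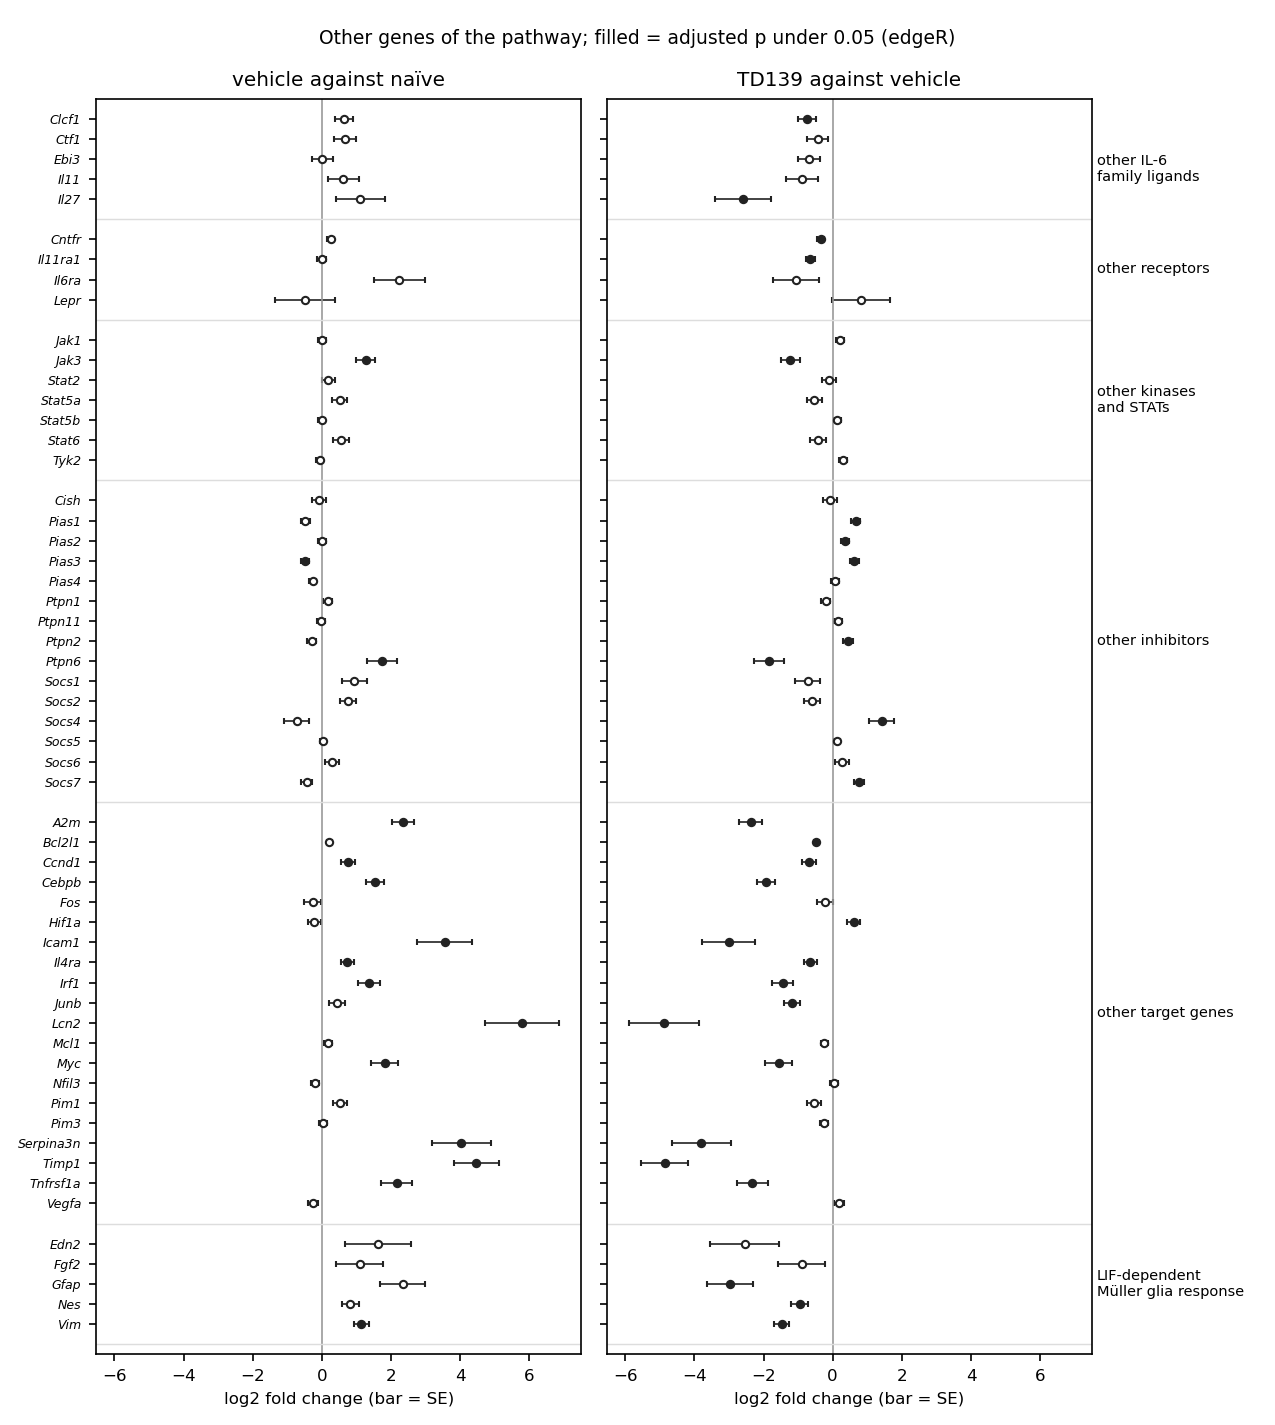
The log2 fold changes of the tested genes from the pathway lists, by list, for vehicle against naïve (left) and TD139 against vehicle (right), with bars for the SE from edgeR and filled points where the adjusted p-value was under 0.05. Filled target genes lie right of 0 on the left and, but for Hif1a, left of 0 on the right.

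The genes whose levels followed a member most closely over the 9 mice were sought among 13085 tested genes with 50 or more counts on average, by the root mean square difference in log2 CPM (with 0.5 CPM added) after each gene was centred on its own mean. For Stat3 they were Prss23, Inpp5d and Plxnd1, at 0.147, 0.165 and 0.167 log2 units, against a range of 1.92 log2 units for Stat3 itself. Inpp5d encodes SHIP1, a phosphatase of blood and microglial cells, and Plxnd1 a semaphorin receptor. For Socs3 they were Gbp3, Tnfrsf1a and Gbp1, at 0.241, 0.249 and 0.264 log2 units. The guanylate-binding proteins Gbp1 and Gbp3 are interferon-induced GTPases and have close paralogs, between which reads may be split. For Osmr they were Cp, the ferroxidase ceruloplasmin, Tnfrsf1a and Gpd1, at 0.308, 0.309 and 0.314 log2 units. Tnfrsf1a, a receptor of tumor necrosis factor, was therefore close to both Socs3 and Osmr, with 8.84 to 14.3 CPM in naïve, 38.5 to 78.5 CPM in vehicle-treated and 6.33 to 17.5 CPM in TD139-treated mice. These distances are descriptions over mice of 3 groups.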

How the data were processed

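Poly(A) RNA libraries of 9 mouse retinas were sequenced as single reads on 2 flow cells. The authors counted reads per gene with BaseSpace RNA Express and deposited 1 table of whole-number counts per mouse and flow cell, without scaling; the labels name the build mm10, and the annotation is not given in the sources used here. Counts of both runs were summed within each mouse. Reads outside genes (16.5 to 22.8% of reads) and ambiguous reads (0.303 to 0.471%) were left out. All 3 groups were fitted together in edgeR 4.0.16 (R 4.3.3) with filterByExpr, TMM normalization and robust quasi-likelihood F tests, and p-values were adjusted by Benjamini and Hochberg over 15196 genes; a gene was called at an adjusted p-value under 0.05. The SE is the log2 fold change divided by the square root of F. On simulated counts for vehicle against naïve over 15196 genes, 197 of 200 genes changed by a log2 fold change of 2 were found, with 8 false calls. This share does not carry over to real genes with a wide spread between mice. Osmr, Cebpd and Bcl3, with log2 fold changes of 2.31, 2.68 and 4.31, were not called in that comparison. Positions and lengths came from GENCODE M21 (GRCm38), joined by symbol for 93.0% of genes and by an older symbol for 5.48%.

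Alternatives were DESeq2 1.42.0, limma 3.58.1 (voom with sample weights), other scalings and filters, only the groups compared, the replicate number as a block, a correction for length and GC content (splines with 4 degrees of freedom per mouse), single runs, and each mouse left out. The genes and lists were chosen with earlier results of these data known. Named besides the 10 genes were all pathway genes called in either comparison with vehicle-treated mice, the 2 most abundant of each list, those with 3 counts or fewer in every mouse, and for cell lists the 2 most abundant and the defining marker; other genes named (Osm, Socs1, Socs2, Edn2, Fgf2, Fos, Mcl1, Nfil3, Pim1 and Pim3) were added after their values were seen. Of the genes listed, 3 are not reported here and were left out of the counts, medians and summed levels of their lists.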

Additional observations from a re-analysis of the deposited data

How the results depend on the processing

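Directions held under every alternative for all 9 genes in vehicle against naïve, and for all but Il6st in TD139 against vehicle, but calls did not. In vehicle against naïve, 2 genes were called, and 1 with a mean of at least 50 counts (Lif is then not tested), 7 with DESeq2, 6 with limma voom, 5 with the length and GC correction, and 0 to 5 with a mouse left out. Of all tested genes 7.8% were called, 15.9% with DESeq2, 22.5% with limma voom and 18.9% with the length and GC correction. With a mouse left out this share was 0.00647 to 12.8%. In TD139 against vehicle, 7 of the 9 were called, 5 with the length and GC correction and 3 to 8 with a mouse left out. The shares of all tested genes were 33.4%, 22.9% and 10.5 to 38.4%. In TD139 against naïve, 1 of the 9 was called, 2 with DESeq2 or limma voom, 0 with library size alone, with only the groups compared or with the length and GC correction, and 0 to 2 with a mouse left out. Over all genes, 775 were called in this last comparison, against 0 with the length and GC correction, 1 with only the groups compared, 2632 with DESeq2 and 5478 with limma voom. Of the 56 other pathway genes tested, 15 were called in vehicle against naïve, 27 with limma voom and 9 with the replicate block, and 0 to 20 with a mouse left out; in TD139 against vehicle 29 were called, and 12 to 30 with a mouse left out. The cause of these shifts was not tested.

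The replicate numbers did not pair the mice: deviations from the group mean correlated at −0.257 to 0.255 for the same number in different groups and at −0.295 to 0.269 for different numbers. With the replicate block, 1 gene was called in vehicle against naïve (Socs3 had an adjusted p of 0.0519), 5 in TD139 against vehicle (Osmr 0.0578 and Bcl3 0.0918) and 0 in TD139 against naïve (edgeR). With the replicate block and the length and GC correction together, the counts were 4, 4 and 0.

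Reversed signs were limited to differences that were not called, other than Cntfr. For TD139 against vehicle, Il6st had a log2 fold change of −0.22 with the length and GC correction and −0.21 with the replicate block added, and Cntfr 0.13 and 0.14. For TD139 against naïve, the same 2 settings gave −0.10 and −0.062 for Osmr, −0.15 and −0.15 for Jak2, and 0.14 and 0.19 for Socs3. In that comparison run 1 alone gave −0.62 for Lif and 0.072 for Socs3, and limma voom −0.18 for Osmr and −1.44 for Bcl3. With a mouse left out in turn, log2 fold changes for TD139 against naïve ran from −0.02 (without naïve mouse 1) to 0.93 for Lif, from −0.49 (TD139-treated mouse 1) to 0.63 for Osmr, also −0.16 without naïve mouse 1, from −1.68 (TD139-treated mouse 1) to 1.09 for Bcl3, from −1.11 to 0.055 (naïve mouse 3) for Cebpd and from −0.43 to 0.15 for Socs3, whose sign turned without naïve mouse 2 or 3 or TD139-treated mouse 2 or 3.

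Of the called genes over all those tested, 63.0% were higher in vehicle against naïve, 77.6% with library size alone and 32.0% with the length and GC correction. In TD139 against vehicle these shares were 51.6, 39.0 and 63.7%. Depth limited Cntf, with 8 counts or fewer in every mouse; among the 10 genes described, the fewest counts of a called gene in its higher group were 67 (Lif).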

Other observations

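The balance of the receptor chains was read after the values were seen, as the level of Osmr over that of Lifr, each per kilobase of exon. It was 0.0887, 0.106 and 0.198 in the naïve group, 0.650, 0.426 and 1.54 with vehicle and 0.233, 0.0600 and 0.0445 with TD139. Every vehicle-treated mouse was above every other mouse, and in vehicle-treated mouse 3 Osmr exceeded Lifr. TD139-treated mice 2 and 3 were below all naïve mice, and TD139-treated mouse 1 was above them. With the longest transcript as the length it was 0.175 to 0.392, 0.843 to 3.05 and 0.0880 to 0.461, and Osmr then exceeded Lifr in vehicle-treated mice 1 and 3. The ratio was not tested.

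The share of reads outside genes was 19.1 to 19.9% without light, 16.5 to 19.4% with vehicle and 21.3 to 22.8% with TD139, so that the TD139 group was apart from both others.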
